A study of Homo sapiens with 6 samples.

Results

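The 10 genes described here encode alpha subunits of heterotrimeric G proteins: GNA11, GNAQ, GNA12, GNA13, GNA15, GNAI1, GNAI2, GNAI3, GNAS and GNAZ. They were taken from the 57905 genes of the deposited table by gene symbol, and each symbol matched a single row. GNA11 was chosen by its lower count under INO80 siRNA in an earlier look at these libraries, and the other 9 were picked as its relatives with the same results known. The difference of each of them between the groups is therefore given as a description, and no test is read from it.

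RNA-seq was performed on HK-2 cells, an immortalized human proximal tubular cell line. The 3 control libraries came from cells given a non-targeting siRNA pool, with the genotype labelled WT. The other 3 libraries came from cells given a pool of siRNAs against INO80, the ATPase of a chromatin remodeling complex, and are labelled knockdown. Both groups were transfected with RNAiMAX, grown in serum-containing medium and harvested after 48 h. A single siRNA pool was used in a single line, so loss of INO80 and any other action of the pool cannot be told apart. Nothing in the labels says that replicates were separate cultures, so p-values measure only the spread between these libraries, which may be technical.

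Reads counted on genes numbered between 16829273 and 20311588 per library under control siRNA and between 20678008 and 23784599 under INO80 siRNA. INO80 itself had a mean of 49.9 ± 3.89 CPM in the control libraries and 13.3 ± 1.12 CPM in those of its knockdown (mean ± SD of 3 libraries), where CPM is the count relative to the TMM-scaled library size. Of 11 markers of the proximal tubule in vivo, GGT1 alone had a mean FPKM (the count relative to exonic length and library total) of at least 1. AQP1, SLC22A6, SLC22A8 and HNF4A had no count in any library. The summed FPKM of the 11 was between 32.0 and 41.8 under control siRNA and between 35.6 and 44.5 under INO80 siRNA. Of 7 kidney epithelial markers 5 were above that level, among them PAX8, KRT8, KRT18 and EPCAM, while PAX2 and CDH1 were at control means of 0.0467 FPKM each. The sum over these 7 was 239 to 255 FPKM under control siRNA and 241 to 252 FPKM under INO80 siRNA. Of 7 markers of other cell types, COL1A1 alone was, and their sum was 4.28 to 4.78 FPKM under control siRNA and 5.00 to 6.26 FPKM under INO80 siRNA. The part of these cells in any result was not tested.

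A heterotrimeric G protein couples a receptor at the cell surface to enzymes inside the cell. The alpha subunit holds GDP while it is bound to a beta-gamma pair, takes up GTP when the receptor is activated, and then acts on its effector until it hydrolyses the GTP. Alpha subunits fall into classes by effector. The Gq class (GNAQ, GNA11 and, mainly in blood cells, GNA15) switches on phospholipase C beta, which releases calcium. The G12 class (GNA12 and GNA13) acts through guanine nucleotide exchange factors on small GTPases that organize the actin cytoskeleton. GNAS encodes the subunit that stimulates adenylyl cyclase, and the Gi class (GNAI1, GNAI2, GNAI3 and GNAZ) inhibits it. In the proximal tubule, Gq and Gs signalling carry the responses to angiotensin II and parathyroid hormone.

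The level of each subunit was first ordered in the control libraries, which the choice of the genes did not use as a contrast. GNAS was the highest, at 86.98 to 92.66 FPKM. GNAI3 followed at 79.7 to 84.2 FPKM and GNAI2 at 48.18 to 58.85 FPKM. The G12 class members GNA13 and GNA12 came next, at 32.34 to 33.17 and 29.93 to 33.54 FPKM, and these neighbours overlapped. GNA11 lay below them at 11.26 to 12.42 FPKM. GNAI1, at 4.22 to 4.89 FPKM, and GNAQ, at 3.63 to 4.02 FPKM, were lower still and did not overlap each other. GNAZ reached between 0.25 and 0.54 FPKM. GNA15 had 1 count in control replicate 3 and 1 in INO80 replicate 3, with 0 in the other 4 libraries, which allows up to 3 counts in each. The order was the same under INO80 siRNA by the group means, but there the levels of GNA13 (27.78 to 30.4 FPKM) and GNA12 (18.28 to 20.21 FPKM) no longer overlapped, while those of GNAI1 (3.22 to 4.82 FPKM) and GNAQ (3.21 to 3.75 FPKM) did.

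**Figure D1:**
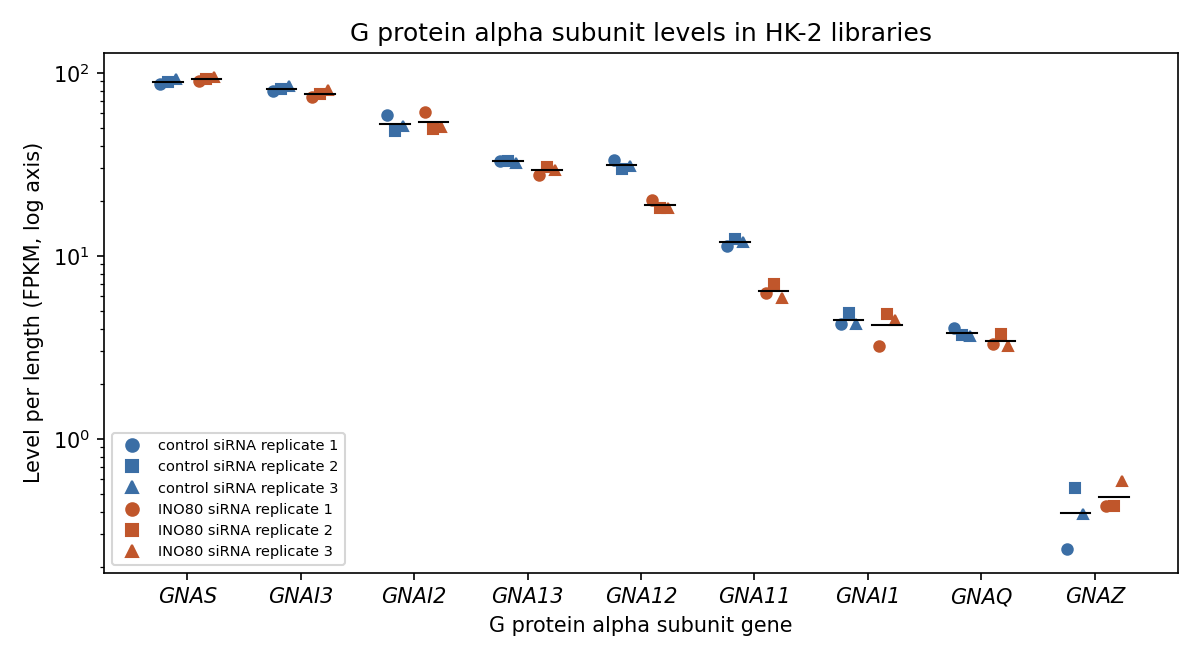
Level of 9 alpha subunit genes in each library in FPKM on a log axis, with a symbol for each replicate, blue for control siRNA, orange for INO80 siRNA, and a black line at each group mean (n = 3). GNA15, near 0 in all libraries, is not drawn. GNA11 lies at 11.26 to 12.42 FPKM under control siRNA and 5.89 to 7 FPKM under INO80 siRNA, and all GNAQ libraries lie between 3.21 and 4.02 FPKM.

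The order rests on the gene length used. The table divides by the length of all annotated exons of a gene, which is 13320 bases for GNAS and 3206 bases for GNAI3, whereas the canonical transcripts of GENCODE are 1854 and 9044 bases long. With canonical lengths, chosen after seeing the data, the mean control level of GNAI3 was 28.96 FPKM and it moved to rank 4, behind GNAS, GNAI2 and GNA12. GNAQ, at 3.71 FPKM, then stood above GNAI1, at 2.00 FPKM. GNAS stayed at rank 1 and GNA11 at rank 6 with both lengths. Differences between the groups do not depend on this choice, since a gene keeps its length in every library.

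Summed over classes, the 10 genes added up to 309 ± 5.07 FPKM in the control libraries and 286 ± 3.15 FPKM with INO80 depleted (mean ± SD of 3 libraries). Gi class genes held 45.1% ± 0.688 of that sum in control and 47.3% ± 1.13 in INO80 siRNA libraries, and GNAS held 28.99% ± 0.982 and 32.4% ± 0.852, in the same order. The share of the G12 class was 20.8% ± 0.536 under control siRNA and 16.9% ± 0.336 under INO80 siRNA. The Gq class had the smallest share, 5.07% ± 0.222 under control siRNA and 3.43% ± 0.334 under INO80 siRNA. Depth of the libraries cancels in these shares, but gene length does not. With canonical transcript lengths, chosen after seeing the data, GNAS held the largest share, 67.8% under control siRNA and 70.5% under INO80 siRNA, and the Gi class held 22.5% and 22.8%. The G12 class then held 7.48% and 5.34%, and the Gq class 2.26% and 1.37%. The shares of the Gq and G12 classes did not overlap between the groups with either length. Those of the Gi class and GNAS did not overlap with exonic lengths and overlapped with canonical lengths. Shares add up to a fixed total, so lower shares of some classes go with higher shares of others.

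GNA11 (ENSG00000088256) lies on the plus strand of chromosome 19 from 3094408 to 3124002 in GRCh37 coordinates. Its raw counts were 1183, 1575 and 1430 in control replicates 1, 2 and 3 and 812, 1039 and 874 in INO80 replicates 1, 2 and 3. Scaled to depth, these were 72.1, 77.1 and 74.0 CPM under control siRNA and 40.4, 43.0 and 36.1 CPM under INO80 siRNA. The groups did not overlap, and the lowest control library stood well above the highest INO80 siRNA library. The group means, 74.4 ± 2.50 and 39.8 ± 3.51 CPM (± SD of 3 libraries), differed by -0.90 on the log2 scale (standard error, SE, 0.0776), which is 0.535 of the control level. In bulk RNA, fewer cells that express a gene and less RNA per cell cannot be told apart.

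GNAQ (ENSG00000156052, chromosome 9, 80331003 to 80646374, minus strand, GRCh37) is the close paralog of GNA11 and acts on the same phospholipase C beta. It was at 27.8, 24.9 and 24.3 CPM in control replicates 1, 2 and 3 and at 22.7, 24.9 and 21.3 CPM in the INO80 siRNA replicates. The groups overlapped, with INO80 replicate 2 within the control range. The log2 fold change was -0.16 (SE 0.0939). Per length, the ratio of GNA11 to GNAQ was 2.80, 3.35 and 3.29 in the control libraries and 1.92, 1.87 and 1.83 in the INO80 siRNA libraries. The ratio averaged 3.15 ± 0.300 in control and 1.87 ± 0.0418 in INO80 siRNA libraries (± SD of 3), so GNA11 remained the more abundant of the pair in every library. With canonical transcript lengths the mean ratios were 4.78 and 2.85.

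The third Gq class gene, GNA15, is the neighbour of GNA11 on chromosome 19, from 3136191 to 3163767 (GRCh37), and was below the count filter of the fit. The coding sequences of GNA11 and GNAQ, each 1080 bases long, were identical at 78.5% of positions, and no run of 50 bases was shared between the canonical transcripts of any 2 of the 10 genes.

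GNA12 (ENSG00000146535, chromosome 7, 2767746 to 2883958, minus strand, GRCh37) was the other member with a large difference. Its level was 211, 182 and 188 CPM in control replicates 1, 2 and 3. In INO80 replicates 1, 2 and 3 it was 127, 110.1 and 109.8 CPM. The groups did not overlap, and replicate 1 was the highest library of both. The group means, 194 ± 15.1 and 116 ± 9.97 CPM (± SD of 3 libraries), differed by -0.74 on the log2 scale (SE 0.0826), which is 0.598 of the control level. The 3′ part of GNA12 overlaps AMZ1, a gene on the opposite strand from 2719156 to 2815134. AMZ1 was at 131, 70.2 and 85.2 CPM in the control libraries and 108, 51.1 and 55.8 CPM in the INO80 siRNA libraries, with a log2 fold change of -0.42 (SE 0.309). The groups of AMZ1 overlapped, and its adjusted p was 0.566 without and 4.39e-07 with the replicate number as a block (edgeR). The libraries were directional, but the strand setting of the counting is not given in the sources used here, so reads from the shared span are uncertain for both genes.

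GNA13 (ENSG00000120063, chromosome 17, 63006833 to 63052957, GRCh37), the second G12 class gene, was at 174, 168 and 164 CPM in the control replicates and 146, 153 and 148 CPM in the INO80 siRNA replicates. The groups did not overlap, but the difference was small, with a log2 fold change of -0.18 (SE 0.0537). The ratio of GNA12 to GNA13 in FPKM was 1.01, 0.902 and 0.956 in the control libraries and 0.728, 0.601 and 0.617 in the INO80 siRNA libraries. On this scale the pair was near equal under control siRNA and GNA12 was the lower in each INO80 siRNA library. With canonical transcript lengths the order turned, and the mean ratio was 1.64 ± 0.0941 under control siRNA and 1.11 ± 0.118 with INO80 depleted (SD of 3 libraries), with GNA12 the higher in all 6 libraries.

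**Figure D2:**
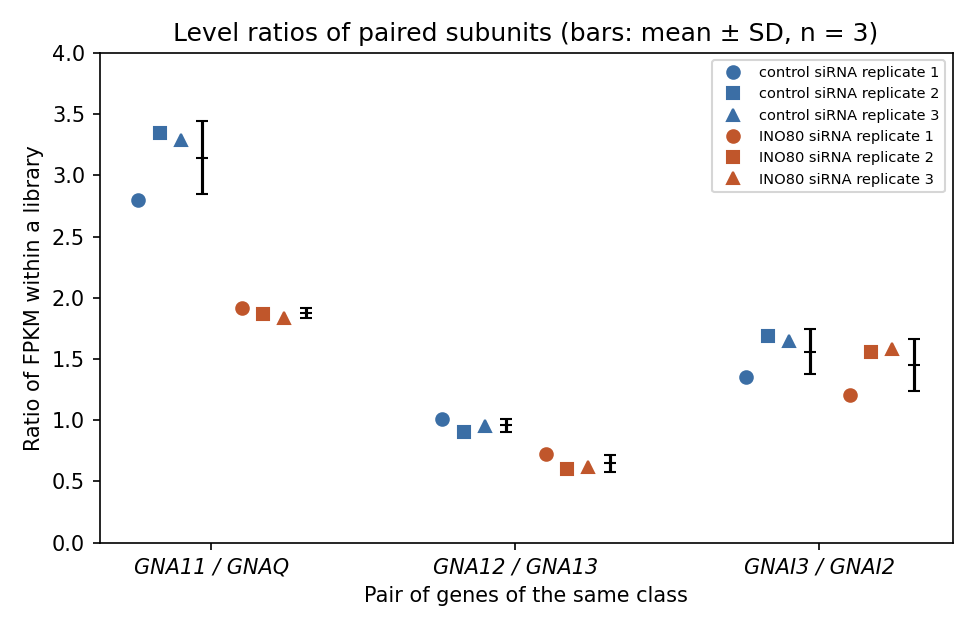
Ratio of FPKM within each library for GNA11 to GNAQ, GNA12 to GNA13 and GNAI3 to GNAI2, blue for control siRNA and orange for INO80 siRNA, with the mean and SD of 3 libraries in black. The GNA11 to GNAQ ratio is 2.80 to 3.35 under control siRNA and 1.83 to 1.92 under INO80 siRNA, and the GNAI3 to GNAI2 ratio overlaps between the groups.

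The subunits that act on adenylyl cyclase differed little. GNAS was at 1189, 1178 and 1226 CPM in control replicates 1, 2 and 3 and 1236, 1210.1 and 1247 CPM in the INO80 siRNA replicates, with a log2 fold change of 0.04 (SE 0.0512). GNAS is a complex locus with several promoters and an antisense transcript, GNAS-AS1, which overlaps it and had a mean of 34 counts in the control libraries. GNAI2 ranged from 366 to 462 CPM under control siRNA and from 369 to 483 CPM under INO80 siRNA. Its highest library was replicate 1 in both groups, and its log2 fold change was 0.02 (SE 0.120). GNAI3 was at 262, 259 and 268 CPM in the control libraries and 245, 241 and 253 CPM in the INO80 siRNA libraries. These groups did not overlap, although the log2 fold change was only -0.10 (SE 0.0518). GNAI1 overlapped between the groups, at 19.1 to 22.1 CPM under control siRNA and 15.1 to 21.6 CPM under INO80 siRNA. GNAZ, a Gi class subunit known from neurons and platelets, had between 16 and 54 counts per library and a log2 fold change of 0.28 (SE 0.306).

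Counts were compared across all genes with edgeR's quasi-likelihood test, and a gene was called with a Benjamini-Hochberg adjusted p under 0.05 over the 15343 genes tested. GNA15 was below the filter, and of the other 9 genes 2 were called, GNA11 and GNA12, both lower. Among all genes tested, 1.75% were called, 1.49% lower and 0.261% higher under INO80 siRNA. Because the genes were chosen with this contrast known, nothing is read from the count. Same-numbered libraries shared their deviations from the group means, and a fit blocked on that number called 4 of the 9, GNA11, GNA12, GNA13 and GNAI3, all lower. In that fit 24.8% of all genes tested were called, 13.4% lower and 11.4% higher. The same 4 genes had INO80 siRNA libraries that were all below the control libraries in CPM, as did 11.5% of all genes tested, and 11.3% had the opposite order. GNAQ was called in neither fit. The median log2 fold change of the 9 was -0.10, against 0.01 over all genes tested.

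**Figure D3:**
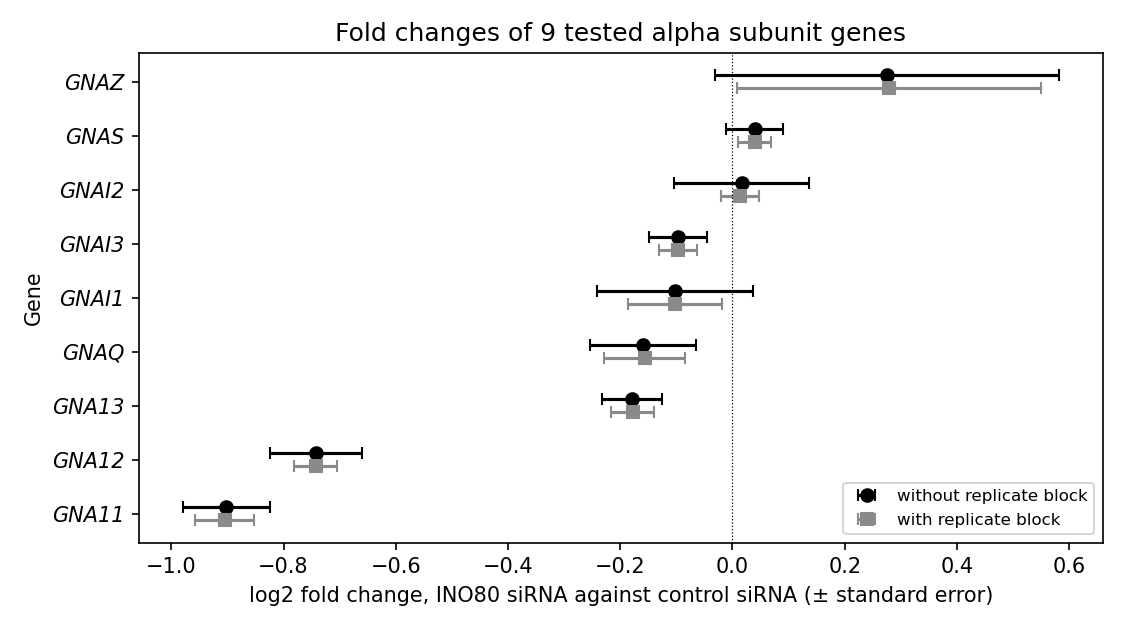
The log2 fold change of 9 alpha subunit genes under INO80 siRNA against control siRNA with its standard error, from edgeR without a replicate block (black circles) and with it (grey squares). GNA11 at -0.90 and GNA12 at -0.74 stand apart from the other genes, which lie between -0.18 and 0.28.

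Leaving out libraries changed the call of GNA12 and not that of GNA11, but both genes came near the threshold. Whether a single library or both replicate 1 libraries were left out, GNA11 was called in 7 of 7 fits. Its log2 fold change was between -0.96 and -0.83 and its adjusted p between 0.00344 and 0.0405 (edgeR). GNA12 was called in 5 of these 7 and lost without control replicate 3 and without INO80 replicate 3. The log2 fold changes there were -0.77 and -0.71, with an adjusted p of 0.0501 and 0.0574 (edgeR). As the genes were chosen with this contrast known, nothing is read from these calls. Without both replicate 1 libraries the log2 fold changes were -0.94 for GNA11, -0.75 for GNA12 and -0.10 for GNAQ.

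The transcripts of the genes were then compared for a short word, AACGGCA, that had been singled out in these same libraries because genes with it in the 3′ UTR were lower under INO80 siRNA. It is thus not independent of the contrast. In the canonical GENCODE transcripts, GNA11 and GNA12 each held it once, in the 3′ UTR, and the other 7 tested genes did not hold it. GNA15, below the count filter, was not searched. The sites of GNA11 and GNA12 are shown because these are also the genes with the large differences. Each window is 30 bases of the transcript, 5′ to 3′, at chr19:3121393-3121422 on the plus strand for GNA11 and chr7:2730305-2730334 on the minus strand for GNA12 (hg38), with the word in capitals.
GNA11: caccttttgtcAACGGCAaaggcagccttt
GNA12: ctgcccaacccAACGGCAaagacacagaaa

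The windows share a run of 11 bases, CAACGGCAAAG. The canonical coding transcripts of 12646 tested genes could be matched, and 228 of them (1.80%) held the word in the 3′ UTR, with a median log2 fold change of -0.10. Of these 228 genes, 27 (11.8%) were called lower in edgeR, GNA11 and GNA12 among them. Another 815 genes held the word in the coding sequence and not in the 3′ UTR, with a median log2 fold change of -0.06. Of these 815 genes, 3.80% were called lower. The 11550 genes without the word had a median of 0.02, and 1.42% of them were called lower. Anywhere in the transcript, the word occurred in 1096 genes, of which 5.38% were called lower. The reverse complement, also counted anywhere in the transcript, occurred in 887 genes, of which 1.47% were called lower. As the word was singled out by this contrast, nothing is read from how these shares differ. PRKAR2A, a regulatory subunit of protein kinase A, also held the word in the 3′ UTR and had a log2 fold change of 0.05 (SE 0.0681). Whether the word has a part in the lower counts was not tested.

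The promoters of GNA11 and GNA12 are shown because INO80 is known to remodel nucleosomes at promoters and both genes had lower counts. Each sequence holds the 250 bases before the annotated start (RefSeq, GRCh38.p14), at chr19:3094112-3094361 on the plus strand for GNA11 and chr7:2844309-2844558 on the minus strand for GNA12. Capitals mark the CCAAT box (CCAAT or ATTGG) and the GC box (GGGCGG or CCGCCC), searched on both strands, and neither motif overlaps the other.
GNA11: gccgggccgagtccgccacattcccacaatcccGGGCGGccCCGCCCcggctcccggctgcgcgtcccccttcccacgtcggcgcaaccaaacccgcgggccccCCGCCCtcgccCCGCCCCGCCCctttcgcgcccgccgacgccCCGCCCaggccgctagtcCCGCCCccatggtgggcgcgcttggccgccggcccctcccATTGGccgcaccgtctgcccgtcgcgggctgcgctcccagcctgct
GNA12: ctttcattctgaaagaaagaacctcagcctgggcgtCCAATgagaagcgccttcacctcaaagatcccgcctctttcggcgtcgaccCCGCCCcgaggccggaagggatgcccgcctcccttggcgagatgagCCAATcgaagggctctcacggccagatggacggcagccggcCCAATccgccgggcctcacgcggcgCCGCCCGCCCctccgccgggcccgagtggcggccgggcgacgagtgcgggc

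GNA11 held 7 GC boxes and 1 CCAAT box, and GNA12 held 3 of each. Among 35116 promoters of the same length, 42.6% held a GC box and 32.0% a CCAAT box. The GC content was 80.4% for GNA11 and 69.6% for GNA12, with 37 and 30 CG dinucleotides, against medians of 58% and 11 over all promoters. GNA13, whose difference was small, had 6 GC boxes, no CCAAT box in this window and a GC content of 82.0%. High GC content was not particular to GNA11 and GNA12. It was 79.6% for GNAI1, 72.8% for GNAI2, 57.6% for GNAI3 and 75.6% for GNAS, with 34, 24, 21 and 33 CG dinucleotides. These 4 held 3, 3, 2 and 0 GC boxes, and GNAI2 alone of them held a CCAAT box. The start used for GNAS lay 2241 bases from that of its canonical transcript. GNAQ, GNA15 and GNAZ had no entry. A match is a description of letters and was not tested as a binding site.

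The neighbours of GNA11 on chromosome 19 had log2 fold changes above 0 or were below the count filter. Within 100 kb of its span, AES, a transcriptional corepressor, and NCLN, an endoplasmic reticulum membrane protein, were the coding genes that passed the filter. AES had a log2 fold change of 0.15 (SE 0.089) and NCLN of 0.11 (SE 0.0749), and the groups of both overlapped. AES was called higher with the replicate block (adjusted p = 0.0117, edgeR) and not without it (0.462). Antisense genes of the table within the span of GNA11, AC005262.2 and AC005262.3, had no count in any library. As the strand setting of the counting is not given, reads from these shared spans are uncertain. TLE2, TLE6, S1PR4 and GNA15 were below the filter. Near GNA12, TTYH3 had a log2 fold change of -0.03 (SE 0.0885).

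The pattern most like that of GNA11 over the 6 libraries was sought among 9737 tested genes with a mean of at least 10 CPM, by Pearson's r of log2 CPM. The 5 closest genes were CLTC, C1orf198, PPP5C, TBC1D4 and MAPKAPK3, with r between 0.996 and 0.998 and log2 fold changes of -0.43, -0.49, -0.23, -0.24 and -0.60. GNA12 had an r of 0.95 with GNA11 and stood at rank 212, close to GNA13 with an r of 0.94 at rank 278. GNAI3 had an r of 0.80 at rank 1061 and GNAQ of 0.73 at rank 1430. GNAI1, GNAI2 and GNAS had an r of 0.35, -0.07 and -0.74. The libraries fall into 2 groups, so the difference between the groups sets most of each r, and no p is given.

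The rest of the pathway was described by 10 lists holding 148 genes, of which 104 passed the count filter. RHOB, a small GTPase on the G12 class effector list, was the 1 gene of these 104 called in edgeR, against 1.75% of all genes tested. It was at 118, 93.7 and 103 CPM in the control replicates and 74.3, 63.1 and 66.0 CPM in the INO80 siRNA replicates, without overlap. It fell by 0.63 on the log2 scale (SE 0.0977). The adjusted p was 0.0248 (edgeR), which ranged from 5.75e-11 to 0.137 over 11 alternative fits. The call was lost without control replicate 2 or 3 and without INO80 replicate 2 or 3, where the adjusted p was 0.0527, 0.114, 0.105 and 0.137 (edgeR). At an unadjusted p under 0.05, 17 of the 104 genes were lower and 5 higher, against 9.2% and 7.18% of all genes tested. DESeq2 called 8 of the 93 list genes to which it gave an adjusted p, against 4.58% of all such genes. With the replicate block 28 were called, 21 lower and 7 higher, against the 24.8% of all tested genes in that fit. The median log2 fold change over the 104 genes was -0.09.

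**Figure D4:**
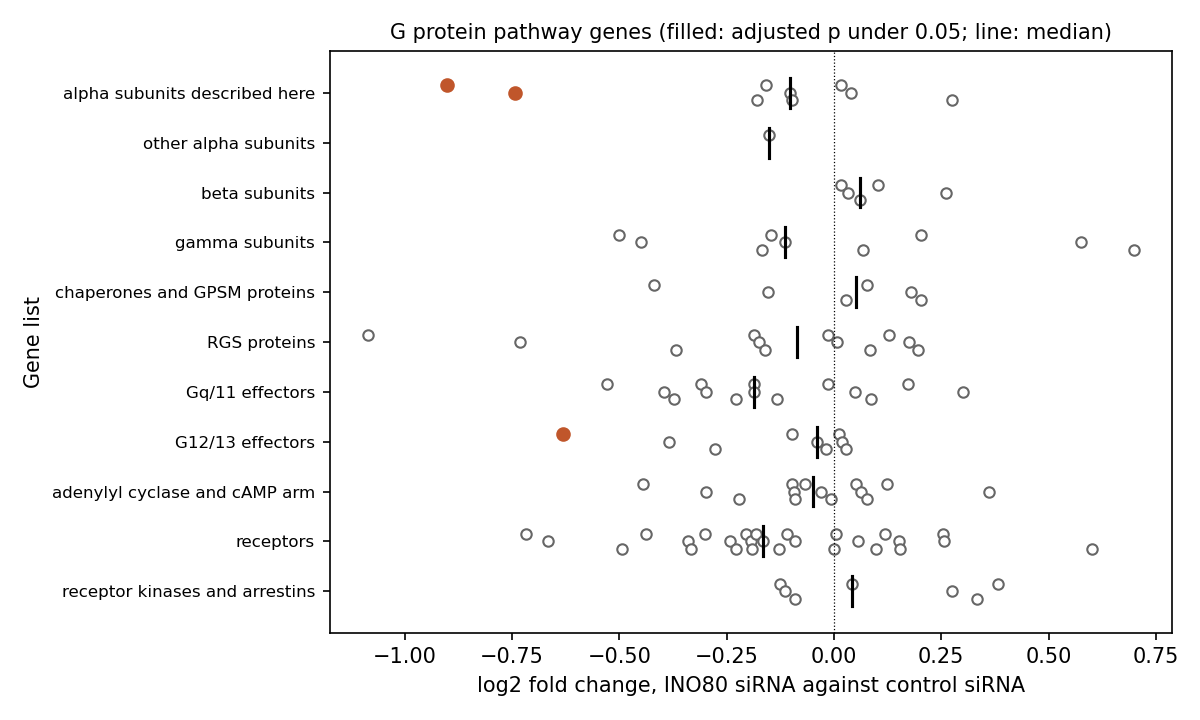
The log2 fold change under INO80 siRNA against control siRNA of each tested gene of the alpha subunits and of 10 lists of other G protein pathway genes, with filled points for an adjusted p under 0.05 in edgeR and a black line at each list's median. GNA11, GNA12 and RHOB are the filled points, at -0.90, -0.74 and -0.63.

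Of the receptors, 27 of 44 were tested. AGTR1, the receptor of angiotensin II, had no count in any library, and PTH1R, that of parathyroid hormone, had between 0 and 7 counts and was below the filter. The most abundant, F2RL1 (a protease-activated receptor), had a control mean of 42.9 FPKM and a log2 fold change of -0.24 (SE 0.115). It was called lower with the replicate block (adjusted p = 6.8e-05, edgeR) and not without it (0.35). With the block 5 of the 27 receptors were lower in all and 1 higher, where 13.4% of all genes tested were lower and 11.4% higher. The related receptor F2R, named after its values were seen, was at 35.3, 68.7 and 71.4 CPM in the control replicates and 20.2, 41.3 and 45.0 CPM in the INO80 siRNA replicates. Replicate 1 was the lowest library in both groups, the groups overlapped, and each INO80 siRNA library was below its control library of the same number. Its adjusted p was 0.323 without the block and 1.78e-10 with it (edgeR), at a log2 fold change of -0.72. The higher receptor was P2RY6, also named after its values were seen. P2RY6 had a log2 fold change of 0.60 (SE 0.184), without overlap. Its adjusted p was 0.153 without the block and 0.00015 with it (edgeR).

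The beta and gamma subunits, which pair with alpha subunits, ranged widely in level. GNB1 and GNB2 had control means of 107 and 76.0 FPKM and log2 fold changes of 0.03 and 0.02 (SE 0.0602 and 0.0572). All 5 beta genes were tested, with log2 fold changes between 0.02 and 0.26. Of the gamma genes, 9 of 12 were tested. GNG5 and GNG12 were the most abundant, at control means of 99.3 and 81.9 FPKM, with log2 fold changes of 0.07 and -0.15 (SE 0.0677 and 0.0575). The 9 ranged from -0.50 to 0.70 in log2 fold change, and no gamma gene was called without the block. With the block GNG10 and GNG12 were lower (adjusted p = 0.000323 and 0.00299, edgeR) and GNG11 was higher (0.00142). In that fit 13.4% of all genes tested were lower and 11.4% higher. GNG10, named like the next genes after its values were seen, had a control mean of 11.6 FPKM and a log2 fold change of -0.45 (SE 0.0949), without overlap. GNG3 and GNG7, at control means of 0.487 and 0.233 FPKM, had log2 fold changes of 0.70 and 0.58 (SE 0.356 and 0.302). GNG8 and GNGT1 had no count in any library. RIC8A, a chaperone for Gq, Gi and G12 class alpha subunits, had a log2 fold change of -0.15 (SE 0.068), and PDCL, a chaperone of beta-gamma assembly, of 0.20 (SE 0.0729). RIC8A was called lower and PDCL higher with the block (adjusted p = 0.00935 and 0.0145, edgeR), not without it. Of the 6 alpha subunit genes outside the 10, GNAL passed the filter, at a control mean of 0.07 FPKM, and GNAT2 was at 0.21 FPKM.

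Among the effectors of the Gq class, 14 of 16 genes were tested, with a median log2 fold change of -0.19. PLCB4, a phospholipase C beta, and TRIO, a guanine nucleotide exchange factor, were the most abundant at 61.5 and 27.0 FPKM under control siRNA, with log2 fold changes of -0.19 (SE 0.0903) and -0.13 (SE 0.124). With the block 7 were called lower and 1 higher, where 13.4% of all genes tested were lower and 11.4% higher. The lower genes were PLCB4, ITPR2, ITPR3, PRKCA, PRKCE, TRIO and KALRN and the higher gene was PLCB3, named here after their values were seen. For ITPR2, a calcium release channel, the levels were 160, 128 and 139 CPM in the control libraries and 116, 107 and 101 CPM in the INO80 siRNA libraries, without overlap. For PRKCA, a protein kinase C, they were 99.2, 86.2 and 94.9 CPM against 76.3, 75.3 and 76.3 CPM, again without overlap. Their adjusted p was 0.0773 and 0.0682 without the block, and 1.85e-07 and 2.48e-05 with it (edgeR).

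All 9 effector genes of the G12 class were tested. Besides RHOB, the most abundant were RHOA and RHOC, at control means of 211 and 77.5 FPKM, with log2 fold changes of 0.03 and 0.01 (SE 0.0811 and 0.0772). With the block 3 were lower, RHOB, ROCK2 and AKAP13, of which the last 2 are named after their values were seen. In that fit 13.4% of all genes tested were lower. ROCK2, a kinase of the actin cytoskeleton, had a log2 fold change of -0.38 (SE 0.0805), with an adjusted p of 0.0572 without the block and 5.24e-08 with it (edgeR).

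In the cAMP arm, 14 of 21 genes were tested, and with the block 2 were lower and 1 higher. Of all genes tested in that fit, 13.4% were lower and 11.4% higher. PRKAR1A and PRKAR2A, regulatory subunits of protein kinase A, had control means of 23.9 and 11.2 FPKM and log2 fold changes of -0.22 and 0.05 (SE 0.0654 and 0.0681). PRKAR1A was called lower with the block (adjusted p = 0.000144, edgeR). The higher gene was ADCY6, an adenylyl cyclase named after its values were seen. ADCY6 had a log2 fold change of 0.36 (SE 0.0764), without overlap. Its adjusted p was 0.058 without the block and 5.19e-06 with it (edgeR). RGS proteins, which speed up the GTPase of alpha subunits, were mostly low. Of 21 genes 12 were tested, with a median of -0.09, and RGS10 and RGS19, the most abundant, had control means of 12.4 and 10.8 FPKM. Of the receptor kinases and arrestins all 7 were tested, and with the block 2 were higher, ARRB1 and ARRB2, against 11.4% of all genes. ARRB2, an arrestin that uncouples receptors, was at 23.9, 24.0 and 24.5 CPM in the control libraries and 35.3, 29.9 and 29.3 CPM in the INO80 siRNA libraries, without overlap. Its log2 fold change was 0.38 (SE 0.0906), at an adjusted p of 0.0835 without the block and 0.000218 with it (edgeR).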

How the data were processed

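Poly(A) RNA of HK-2 cells was sequenced as directional paired-end libraries, 3 per group. The authors deposited 1 table with raw read counts and FPKM per gene. The submitters' processing notes list HISAT2 2.0.1, HTSeq and hg19, whereas the paper's methods name another aligner and hg38. The table's gene coordinates run past the ends of hg38 chromosomes and are given as GRCh37. All 347430 deposited FPKM values equalled the count divided by exonic length and library total, to within 0.005. The canonical transcripts, word sites and promoters are in hg38.

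Counts were fitted in edgeR 4.0.16 (R 4.3.3) with filterByExpr, TMM and treatment alone. This filter left 15343 genes. Standard errors in edgeR were derived from its test. Each is the absolute log2 fold change divided by the square root of the quasi-likelihood F. Levels between genes were compared in FPKM and levels between groups in CPM. The members and gene lists were chosen with earlier results of these data known. Genes named besides the 10 were, in each list, the 3 smallest p in each direction among called genes and the 2 highest in FPKM, the neighbours of GNA11 and the 5 genes of most similar pattern. Across genes, deviations from the group means correlated at 0.639 between the replicate 1 libraries, 0.446 between those of replicate 2 and 0.427 between those of replicate 3, against at most 0.165 for unlike numbers, so the block is given where it changes a call. The labels do not state the pairing. Alternatives were no filter, RLE factors, DESeq2 1.42.0, the block and left-out libraries. The fits were tested on simulated data. Limits on a count of 0 cover counting error only. Outliers within groups of 3 were not tested. Some genes that the rule names are not reported here.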

Additional observations from a re-analysis of the deposited data

How the results depend on the processing

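GNA11 kept its direction in all 11 alternatives, with log2 fold changes from -0.96 to -0.83, and -0.90 in the fit with the replicate block. Its adjusted p stayed under 0.05 in all 11, at up to 0.0405 (edgeR without control replicate 3). As GNA11 was chosen by this contrast, nothing is read from that. GNA12 was lower in all 11. The 10 genes gave 4 calls with the replicate block and between 1 and 2 when libraries were left out. All tested genes gave 708 calls of 29137 without a filter on low counts, 610 of 13320 with DESeq2 and 3798 of 15343 with the replicate block. Without both replicate 1 libraries they gave 528 of 15659. With a single library left out they gave between 18 of 15673 (without control replicate 3) and 146 of 15672 (without INO80 replicate 1). The pathway lists gave 10 calls of 134, 8 of 93 and 28 of 104 under the first 3 of these. They gave 7 of 107 without both replicate 1 libraries and between 0 and 1 of 104 to 107 with a single library left out. The 28 of 104 stand beside 24.8% of all genes tested in that fit. The share of lower genes among all calls was 228 of 268 without the block and 2050 of 3798 with it. The block changed no call among the members other than those of GNA13 and GNAI3. The ratio of GNA11 to GNAQ under INO80 siRNA was 1.73 from raw counts and 2.85 with canonical transcript lengths, and under control siRNA it was 4.78 with canonical lengths, which follows from the lengths. Left-out libraries gave ratios of 3.04 to 3.32 and 1.85 to 1.89. Small differences turned sign. Without both replicate 1 libraries GNAI1 was at 0.00801 and GNAI2 at -0.016. With single libraries left out GNAI1 ranged from -0.21 to 0.034 and GNAI2 from -0.12 to 0.12. The causes were not tested.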
